A study of Homo sapiens with 12 samples.

Results

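The circadian clock genes described here were 10 core clock components picked by symbol, with no measured value in the rule: BMAL1, CLOCK, PER1, PER2, PER3, CRY1, CRY2, NR1D1, NR1D2 and DBP. Each matched a single Ensembl identifier among the 48162 gene identifiers of the count table, and all 10 were among the 15630 genes that passed the filter on low counts. Their mRNA was measured by RNA sequencing in T84, an established line from a human colon carcinoma whose cells form polarised epithelial layers. Confluent cells in 6-well plates were moved from medium into Hanks buffered saline, at pH 7.4 (the control) or at pH 6.0, and were harvested after 3 h or 6 h. Each of the 4 groups held 3 libraries from this single line, and all 12 libraries came from cells in saline; cells left in medium were not analysed here. The labels do not tell whether the libraries of one group are separate cultures, so p-values speak only of the scatter among these 12 libraries, which may be technical.

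The circadian clock of mammalian cells is a transcriptional feedback loop. BMAL1 and CLOCK form a heterodimer that binds E-box elements and activates the PER and CRY genes, whose proteins return to the nucleus and repress BMAL1 and CLOCK. A second loop runs through NR1D1 and NR1D2 (REV-ERB alpha and beta), E-box targets that repress BMAL1 through ROR response elements, while DBP, another E-box target, activates genes with D-box elements. In cultured cells PER1 is also an immediate early gene, which serum, cyclic AMP and glucocorticoids can induce.

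Libraries held 13912532 to 24331032 counts, and the lowest count of any of the 10 genes in any library was 56 (PER3). The labelled epithelial origin was checked against marker genes: 14 of 14 intestinal epithelial markers averaged at least 1 CPM (counts scaled by TMM-adjusted library totals) in every group, against 0 of 10 fibroblast, 2 of 10 leukocyte and 1 of 6 endothelial markers. Summed epithelial markers were 10470 to 11391 CPM at pH 7.4 and 11710 to 11929 CPM at pH 6.0 at 3 h, and 10678 to 10931 against 12298 to 13398 CPM at 6 h. The leukocyte sum was 9.04 to 13.2 CPM over all libraries, with MS4A1 at 0 in all of them, and the endothelial sum was 9.55 to 13.7 CPM. Fibroblast markers summed to 1.34 to 4.01 CPM in 11 libraries and to 25.6 CPM in replicate 2 of pH 7.4 at 6 h; without that library the same number of clock genes, 9, passed the test of pH at 6 h. At 6 h mitochondrially encoded genes took 7.97 to 8.97% of the counts in neutral saline and 7.14 to 7.40% in acid saline. The part of the epithelial and mitochondrial shifts in the results was not tested. In bulk RNA, fewer cells expressing a gene and less of its RNA per cell cannot be told apart.

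Promoter sequences are shown for the members whose windows held an E-box or a D-box, since PER1 and NR1D2, which share an E-box, moved in opposite directions between pH 7.4 and pH 6.0 at 6 h. RefSeq windows of GRCh38.p14, from 250 bases before to 50 bases after each annotated start, matched 10 of 10 members (15 windows); the authors' own build was hg19, so these coordinates are not those of the count table. Both strands were searched for the E-box CACGTG, the D-box TTATGTAA, the ROR element core TAGGTCA, the cyclic AMP response element TGACGTCA and its core TGACG, which lies within the full element. The stretches below run 5′ to 3′ on the gene's strand from 250 to 51 bases before the start and hold no annotated exon; capitals mark the matches to these motifs. PER1 (minus strand, chr17:8152455-8152654) has an E-box 173 bases before its start, NR1D2 (plus strand, chr3:23945871-23946070) has E-boxes 155 and 105 bases before and a D-box on the other strand 194 bases before, with a TGACG at 204, and PER3 (plus strand, chr1:7784041-7784240) has a D-box 177 bases before.
PER1: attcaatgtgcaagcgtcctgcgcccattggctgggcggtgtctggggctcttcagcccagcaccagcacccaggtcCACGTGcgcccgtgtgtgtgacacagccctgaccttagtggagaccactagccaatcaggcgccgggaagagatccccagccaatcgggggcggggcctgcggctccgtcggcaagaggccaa
NR1D2: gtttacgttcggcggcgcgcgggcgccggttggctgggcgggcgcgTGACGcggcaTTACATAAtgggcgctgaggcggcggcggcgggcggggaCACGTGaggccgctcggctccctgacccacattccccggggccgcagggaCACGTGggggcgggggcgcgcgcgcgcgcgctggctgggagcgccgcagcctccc
PER3: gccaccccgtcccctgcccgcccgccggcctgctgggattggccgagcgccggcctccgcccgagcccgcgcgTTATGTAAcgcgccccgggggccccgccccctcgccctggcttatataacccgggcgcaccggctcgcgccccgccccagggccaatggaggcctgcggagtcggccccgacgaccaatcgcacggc

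An E-box was in 2 of the 15 member windows and in 7.26% of all 35116 RefSeq windows, and the D-box was in 2 of 15 against 0.886% of all. The ROR element core was in 2 of 15, a BMAL1 window (31 bases into the transcript) and a CRY2 window (65 bases before the start), against 1.85% of all. The full cyclic AMP response element was in 0 of 15 windows and in 1.85% of all, and TGACG was in 7 of 15 against 24.55%. A match is a description of the letters, and the absence of a match says only that they are not in these windows.

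Acid saline split the clock genes into a group that rose and a group that fell, and the split was wider at 6 h. At 3 h, 4 of the 10 genes changed between pH 6.0 and pH 7.4: PER1, NR1D1 and CRY2 rose and CRY1 fell, where 18.8% of all tested genes changed (9.53% higher, 9.26% lower). At 6 h, 9 of 10 changed: PER1, NR1D1, DBP and CRY2 rose and BMAL1, PER2, CLOCK, CRY1 and NR1D2 fell, where 47.0% of all tested genes changed (21.9% higher, 25.1% lower). The median size of the log2 fold change over the 10 genes was 0.28 at 3 h and 0.80 at 6 h, beside 0.22 and 0.37 over all tested genes. The median signed change was 0.22 and -0.20 for the 10 genes and -0.0031 and -0.00076 for all tested genes. The CPM of the groups did not overlap for 5 of 10 genes at 3 h (33.0% of all tested genes) and for 9 of 10 at 6 h (56.6%).

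**Figure D1:**
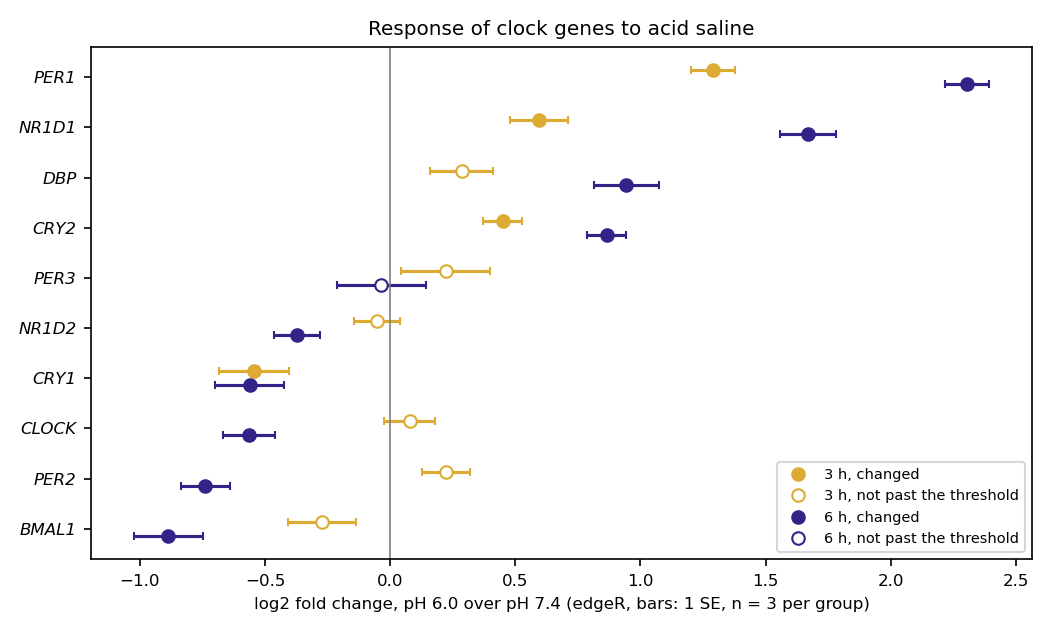
Log2 fold change between pH 6.0 and pH 7.4 for the 10 clock genes at 3 h and at 6 h (points, bars of 1 SE, n = 3 libraries per group; filled points passed an edgeR adjusted p of 0.05). PER1 lies farthest to the right at both times, at 1.29 and 2.31, and BMAL1 farthest to the left at 6 h, at -0.89.

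Of the activators, BMAL1, the partner that CLOCK needs to bind DNA, fell at 6 h. BMAL1 stood at 14.01, 15.8 and 14.2 CPM at pH 7.4 and at 8.49, 7.48 and 7.92 CPM at pH 6.0 after 6 h. Every pH 6.0 library was below every pH 7.4 library. The log2 fold change was -0.89 ± 0.14 (SE; edgeR adjusted p = 1.88e-05). At 3 h BMAL1 was at 10.7, 14.7 and 12.2 CPM at pH 7.4 and at 9.60, 9.82 and 11.6 CPM at pH 6.0. Those groups overlapped, and the difference of -0.27 ± 0.14 on the log2 scale did not pass the test (adjusted p = 0.163). The effect at 6 h differed from that at 3 h by -0.61 ± 0.19 on the log2 scale (adjusted p = 0.0211). That difference did not pass after a spline correction on gene length and GC content, called the length and GC correction from here on (-0.50, adjusted p = 0.0567).

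CLOCK, the other activator, was at 69.3, 66.1 and 76.9 CPM at pH 7.4 and at 49.5, 46.9 and 47.2 CPM at pH 6.0 after 6 h. The acid libraries lay below the neutral ones without overlap, and CLOCK fell by 0.56 ± 0.10 on the log2 scale (adjusted p = 0.000109). At 3 h CLOCK was at 50.3, 68.5 and 51.3 CPM at pH 7.4, with replicate 2 the highest, and at 56.9, 62.4 and 60.3 CPM at pH 6.0. These groups overlapped, with a log2 difference of 0.08 ± 0.10 (adjusted p = 0.635). CLOCK has the longest exon sequence of the 10 genes and the lowest GC content. After the length and GC correction its difference at 6 h was smaller, -0.27 (adjusted p = 0.00598), and the difference between the effects at 6 h and 3 h went from -0.64 ± 0.14 (adjusted p = 0.00234) to -0.08 (adjusted p = 0.643).

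PER1, the repressor with immediate early behaviour, rose most of the 10 genes at both times. PER1 was at 25.03, 25.1 and 31.2 CPM at pH 7.4 and at 64.7, 67.2 and 66.3 CPM at pH 6.0 after 3 h. After 6 h it was at 39.9, 42.4 and 44.2 CPM at pH 7.4 and at 199.5, 217.3 and 207.8 CPM at pH 6.0. No acid library overlapped the neutral libraries at either time. PER1 was 2.45-fold higher at 3 h (log2 1.29 ± 0.09, adjusted p = 8.11e-10) and 4.94-fold higher at 6 h (log2 2.31 ± 0.09, adjusted p = 5.49e-15). By size of change it ranked 409 and 187 among the 15630 tested genes, and the effect was larger at 6 h by 1.02 ± 0.12 (adjusted p = 5.90e-06).

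PER2, which forms the same repressor complex with the cryptochromes, went the other way at 6 h. After 6 h PER2 was at 61.5, 61.9 and 66.9 CPM at pH 7.4 and at 38.3, 39.1 and 36.5 CPM at pH 6.0. The groups were well apart, and PER2 fell by 0.74 ± 0.10 on the log2 scale (adjusted p = 1.89e-06; -0.49 with the length and GC correction). After 3 h it was at 37.9, 47.8 and 48.2 CPM at pH 7.4 and at 49.2, 56.9 and 50.1 CPM at pH 6.0. The acid libraries at 3 h were all above the neutral ones, but the difference of 0.22 ± 0.10 did not pass the test (adjusted p = 0.107). The effects at 6 h and 3 h differed by -0.96 ± 0.14 (adjusted p = 3.30e-05).

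PER3, the third period gene, was the least abundant of the 10 and passed the test in none of the 5 comparisons. Its libraries ranged from 3.78 to 5.45 CPM over all 4 groups, which overlapped. The log2 difference with pH was 0.22 ± 0.18 at 3 h (adjusted p = 0.407) and -0.04 ± 0.18 at 6 h (adjusted p = 0.889).

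The cryptochromes, which carry much of the repressor activity of the complex, moved in opposite directions at both times. CRY2 was at 57.2, 62.0 and 58.3 CPM at pH 7.4 and at 77.1, 84.8 and 80.5 CPM at pH 6.0 after 3 h. After 6 h it was at 62.3, 61.5 and 69.2 CPM at pH 7.4 and at 116.8, 119.1 and 115.4 CPM at pH 6.0. CRY2 rose without overlap at both times, by 0.45 ± 0.08 (adjusted p = 0.000363) and 0.87 ± 0.08 (adjusted p = 6.71e-09) on the log2 scale, and the effect was larger at 6 h by 0.42 ± 0.11 (adjusted p = 0.00706).

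CRY1 was at 19.9, 14.1 and 17.6 CPM at pH 7.4 and at 13.1, 12.1 and 10.1 CPM at pH 6.0 after 3 h. After 6 h it was at 23.6, 18.2 and 19.2 CPM at pH 7.4 and at 14.6, 13.1 and 13.6 CPM at pH 6.0. The acid libraries were below the neutral ones at both times. CRY1 fell by 0.54 ± 0.14 at 3 h (adjusted p = 0.00941) and by 0.56 ± 0.14 at 6 h (adjusted p = 0.00201), and the difference between these effects was -0.02 ± 0.20 (adjusted p = 0.962). The fall at 3 h did not pass without replicate 1 of pH 7.4 (-0.42, adjusted p = 0.0744) or without replicate 3 of pH 6.0 (-0.45, adjusted p = 0.0706).

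NR1D1, a haem-binding repressor of BMAL1, rose with acid at both times. NR1D1 was at 26.9, 22.7 and 22.2 CPM at pH 7.4 and at 39.9, 30.4 and 38.1 CPM at pH 6.0 after 3 h. After 6 h it was at 34.2, 38.1 and 35.0 CPM at pH 7.4 and at 98.1, 130.9 and 112.2 CPM at pH 6.0. The groups did not overlap, and at 6 h the lowest acid library was far above the highest neutral one. NR1D1 was 1.51-fold higher at 3 h (log2 0.60 ± 0.12, adjusted p = 0.00119) and 3.18-fold higher at 6 h (log2 1.67 ± 0.11, adjusted p = 9.00e-11), a difference of 1.07 ± 0.16 between the times (adjusted p = 6.37e-05). Exons of NR1D1 overlap those of THRA, a thyroid hormone receptor gene on the other strand, over 263 bases, 9.49% of the exon bases of NR1D1 in GENCODE 29. Whether the counting used strand is not given in the sources used here, so reads in that overlap cannot be told apart; THRA fell by 0.34 ± 0.08 at 6 h (adjusted p = 0.00124).

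NR1D2, the paralog of NR1D1, did not follow it. NR1D2 was at 209.1, 187.6 and 228.1 CPM at pH 7.4 and at 171.0, 148.9 and 162.3 CPM at pH 6.0 after 6 h. All acid libraries were lower, and NR1D2 fell by 0.37 ± 0.09 (adjusted p = 0.00189), or by 0.21 with the length and GC correction (adjusted p = 0.0116). After 3 h it was at 116.7, 118.6 and 125.5 CPM at pH 7.4 and at 99.8, 127.7 and 120.4 CPM at pH 6.0. These groups overlapped (log2 -0.05 ± 0.09, adjusted p = 0.733).

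DBP, the PAR bZIP activator driven by the clock, rose at 6 h. DBP was at 10.6, 10.3 and 8.76 CPM at pH 7.4 and at 17.7, 17.9 and 21.4 CPM at pH 6.0 after 6 h, with no overlap. The log2 fold change was 0.94 ± 0.13 (adjusted p = 3.58e-06). After 3 h it was at 13.4, 11.8 and 14.9 CPM at pH 7.4 and at 17.8, 14.6 and 16.3 CPM at pH 6.0, which overlapped (0.29 ± 0.13, adjusted p = 0.117). The effect was larger at 6 h by 0.66 ± 0.18 (adjusted p = 0.00939). DBP overlaps exons of SPHK2, a sphingosine kinase gene on the other strand, over 661 bases (10.1% of its exon bases), and SPHK2 fell by 0.48 ± 0.12 at 6 h (adjusted p = 0.00246).

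**Figure D2:**
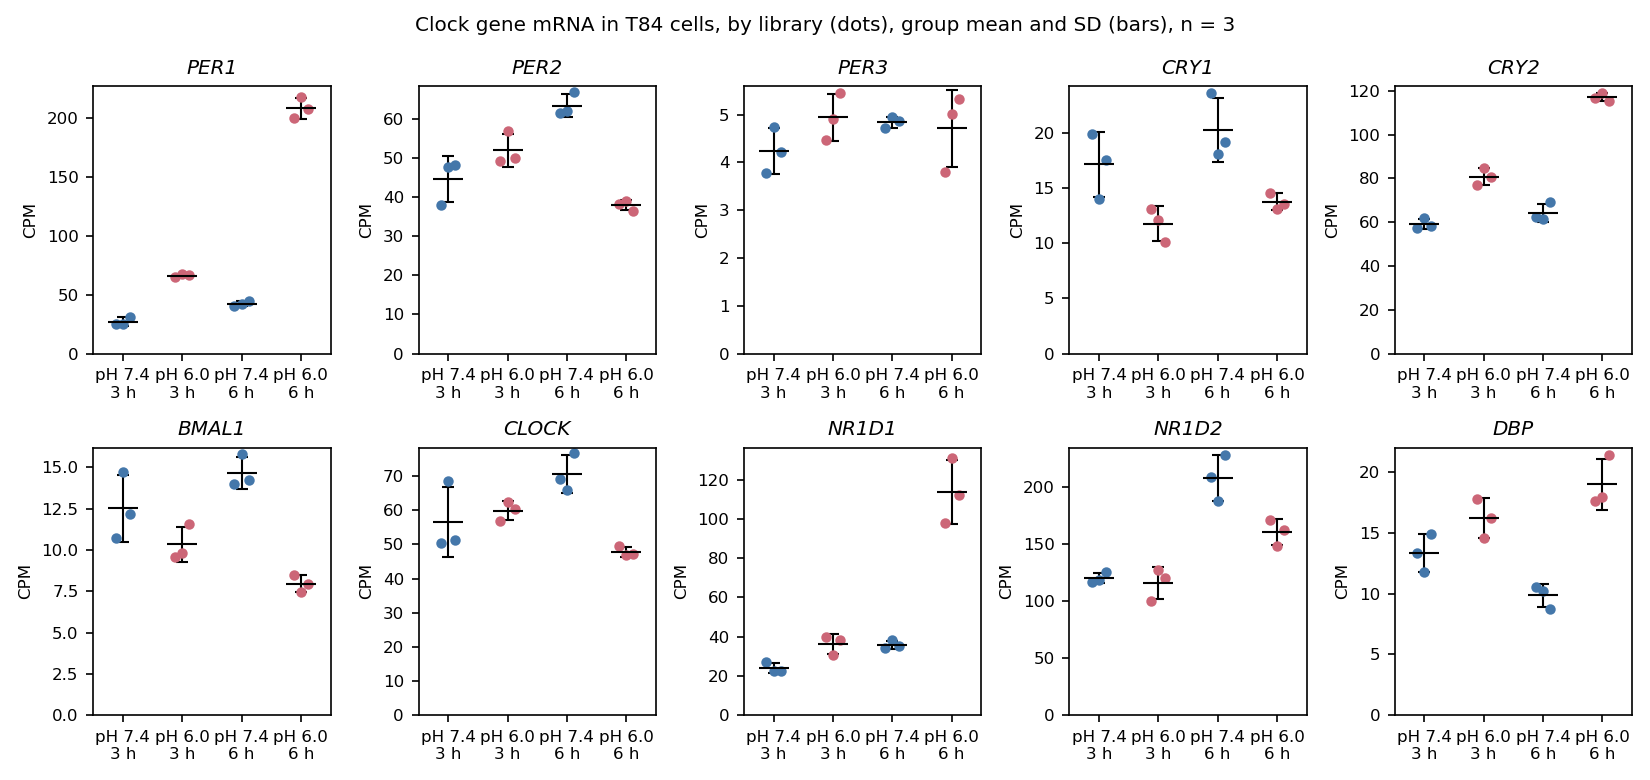
CPM of each clock gene in each of the 12 libraries (dots; blue, pH 7.4; red, pH 6.0), with the mean and SD of each group of 3; each panel has its own axis from 0. The acid libraries at 6 h stand above all others for PER1, NR1D1 and CRY2, and below all others for BMAL1 and CLOCK.

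The test of whether the pH effect differed between the times was passed by 7 of 10 clock genes, where 29.4% of all tested genes passed (13.1% higher, 16.3% lower). The 4 genes with a more positive effect at 6 h were PER1, NR1D1, DBP and CRY2, and the 3 with a more negative one were PER2, CLOCK and BMAL1. The median size of this difference was 0.63 for the clock genes and 0.37 for all tested genes. With the length and GC correction 5 of 10 passed, beside 3734 of all tested genes (4589 without it).

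Clock genes also differed between 3 h and 6 h in control saline. With no cells in medium analysed, time in saline and the hour of harvest cannot be told apart. Between 3 h and 6 h at pH 7.4, 6 of 10 changed where 31.6% of all tested genes did (17.2% higher, 14.4% lower), and 5 of 10 had groups that did not overlap (43.4% of all tested genes). NR1D2 rose most in the control saline, from a mean of 120.3 ± 4.65 to 208.3 ± 20.3 CPM (SD, n = 3; log2 0.79 ± 0.09 SE, adjusted p = 1.36e-06). PER1 rose by 0.64 ± 0.09 (adjusted p = 1.48e-05), NR1D1 by 0.58 ± 0.12 (adjusted p = 0.00074) and PER2 by 0.51 ± 0.10 (adjusted p = 0.000342). CLOCK rose by 0.32 ± 0.10 (adjusted p = 0.0196), a direction that turned with the length and GC correction (-0.15, adjusted p = 0.162). The CLOCK rise also did not pass with library totals alone (0.24, adjusted p = 0.0819). Nor did it pass without replicate 1 or replicate 3 of pH 7.4 at 3 h, or without replicate 3 of pH 7.4 at 6 h. DBP fell by 0.43 ± 0.13 (adjusted p = 0.0145), which did not pass without replicate 3 of pH 7.4 at 3 h (-0.37, adjusted p = 0.0636) or without replicate 3 at 6 h (-0.36, adjusted p = 0.0855).

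At pH 6.0, 6 of 10 changed between 3 h and 6 h where 19.5% of all tested genes did (8.64% higher, 10.9% lower), and 7 of 10 had groups that did not overlap (35.6%). PER1 rose by 1.66 ± 0.09 (adjusted p = 4.99e-12) and NR1D1 by 1.65 ± 0.11 (adjusted p = 3.95e-10), ranks 181 and 183 of the 15630 tested genes by size. CRY2 rose by 0.54 ± 0.08 (adjusted p = 2.51e-05) and NR1D2 by 0.47 ± 0.09 (adjusted p = 0.00087). PER2 fell by 0.45 ± 0.10 (adjusted p = 0.0021), so its means went from 44.6 ± 5.80 to 63.4 ± 3.02 CPM in neutral saline and from 52.0 ± 4.23 to 38.0 ± 1.34 CPM in acid saline. CLOCK fell by 0.32 ± 0.10 (adjusted p = 0.0311), a call that leaving out 1 library ended in 6 of 12 cases. BMAL1 differed by -0.38 ± 0.14 and did not pass (adjusted p = 0.0673). The time and pH comparisons share libraries, since each group enters a comparison of each kind.

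**Figure D3:**
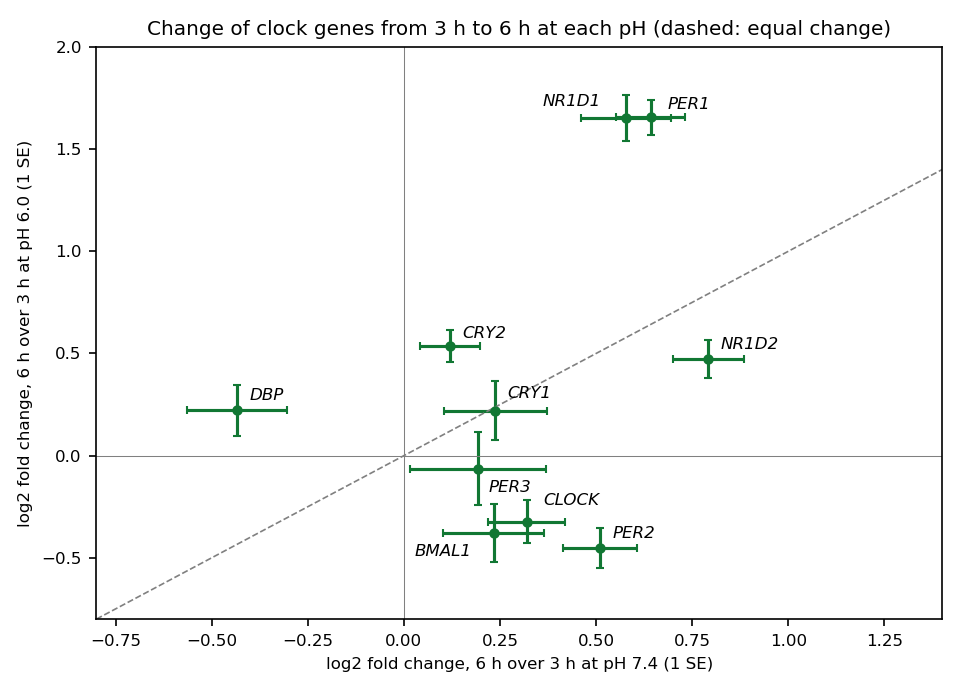
Log2 fold change from 3 h to 6 h at pH 7.4 (horizontal axis) against that at pH 6.0 (vertical axis) for the 10 clock genes, with bars of 1 SE; the dashed line marks equal change. PER1 and NR1D1 lie far above the line, at 1.66 and 1.65 in acid saline, and PER2 lies below it, at 0.51 in neutral and -0.45 in acid saline.

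Levels were compared between genes on the deposited RPKM scale, which divides by gene length. In control saline NR1D2 was the most abundant clock gene, at 23.7 ± 0.482 RPKM after 3 h and 39.1 ± 3.97 RPKM after 6 h (SD, n = 3), followed by CRY2 at 14.6 ± 0.870 and 15.1 ± 1.06 and NR1D1 at 8.96 ± 1.05 and 12.7 ± 0.712. After 3 h at pH 7.4 the libraries of PER2, PER1, CLOCK, CRY1 and BMAL1 formed an order in which each gene overlapped the next, from 7.25 ± 0.917 down to 3.37 ± 0.592 RPKM. After 6 h at pH 7.4 no neighbours in the order overlapped. After 3 h at pH 6.0 the range of NR1D2 (22.4 ± 2.98) overlapped that of CRY2 (19.5 ± 1.10), and that of PER1 (14.3 ± 0.396) overlapped that of NR1D1 (13.2 ± 1.74). After 6 h at pH 6.0 PER1 (42.3 ± 2.02) and NR1D1 (39.3 ± 5.89) led and overlapped each other, ahead of NR1D2 (29.2 ± 1.89) and CRY2 (26.7 ± 0.587), which also overlapped. BMAL1 was at 1.97 ± 0.118 RPKM there, below DBP at 3.16 ± 0.336. PER3 was last in every group, at 0.702 to 0.800 RPKM.

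Ratios of related genes within a library, which do not depend on library scaling but can depend on gene length and GC content, showed how the balance of the loop's parts moved. The log2 ratio of PER1 to PER2 counts was -0.72 ± 0.18 at pH 7.4 and 0.35 ± 0.09 at pH 6.0 after 3 h (SD, n = 3), and -0.59 ± 0.04 and 2.45 ± 0.07 after 6 h. Per length, PER1 went from 0.901 times the RPKM of PER2 in control saline at 6 h to 7.43 times in acid saline. NR1D1 to NR1D2 went from -2.34 ± 0.20 to -1.68 ± 0.37 after 3 h and from -2.54 ± 0.21 to -0.51 ± 0.31 after 6 h, which per length is a change from 0.327 to 1.34 times at 6 h. CRY1 to CRY2 went the other way, from -1.80 ± 0.31 to -2.79 ± 0.22 after 3 h and from -1.67 ± 0.24 to -3.09 ± 0.09 after 6 h. BMAL1 to CLOCK differed less, from -2.18 ± 0.09 to -2.54 ± 0.15 and from -2.27 ± 0.19 to -2.59 ± 0.05. The pH difference in BMAL1 to CLOCK was thus -0.36 at 3 h and -0.32 at 6 h, and -0.13 and -0.55 from the fits with the length and GC correction, an alternative chosen after seeing the data. Over both times the pH difference was 2.06 for PER1 to PER2, 1.34 for NR1D1 to NR1D2, -1.20 for CRY1 to CRY2 and -0.34 for BMAL1 to CLOCK. The libraries of the 2 pH values did not overlap in any of these ratios at either time. Ratios of other gene pairs were not computed, so no share stands beside this. For single genes, CPM did not overlap in 33.0% of all tested genes at 3 h and in 56.6% at 6 h. In the 2-sided exact permutation test within times each of the 4 ratios had p = 0.005 (0.005 after Benjamini-Hochberg adjustment over the 4). That is the smallest value the test can give, and at a single time 3 libraries against 3 cannot go below 0.1. In PER1 to PER2, NR1D1 to NR1D2 and CRY1 to CRY2 the genes had changed in opposite directions at 6 h in these same libraries. For those ratios the p restates these changes and is not separate support. The p for BMAL1 to CLOCK comes from the same libraries, with counts not corrected for length and GC content. It is not separate support either.

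**Figure D4:**
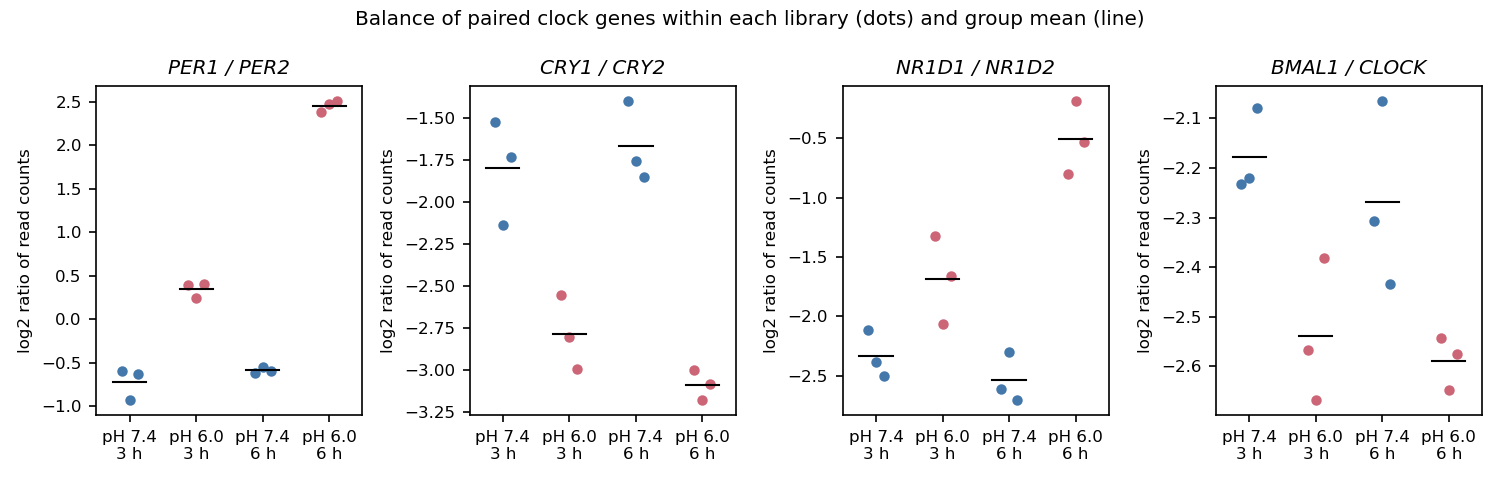
Log2 ratio of the read counts of PER1 to PER2, CRY1 to CRY2, NR1D1 to NR1D2 and BMAL1 to CLOCK in each library (dots; blue, pH 7.4; red, pH 6.0) with the group means (lines); each panel has its own axis, which does not start at 0. PER1 to PER2 reaches 2.45 in acid saline at 6 h against -0.59 in neutral saline, while BMAL1 to CLOCK moves from -2.27 to -2.59.

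Among 7 other paralogs and feedback regulators with enough counts (of 10 listed), 2 rose with acid at 3 h, and at 6 h 1 rose and 2 fell; their median log2 change at 6 h was 0.12, beside -0.00076 for all tested genes. The 3 of 7 called at 6 h are near the 47.0% of all tested genes that changed with pH then (18.8% at 3 h). With 7 genes these counts say little beside those shares. RORA, the nuclear receptor that activates BMAL1 through the element NR1D1 occupies, rose by 0.84 ± 0.11 at 3 h (adjusted p = 1.67e-05) and fell by 0.76 ± 0.11 at 6 h (adjusted p = 6.85e-06). Its mean level went from 22.6 ± 3.41 to 52.8 ± 2.54 CPM in neutral saline between 3 h and 6 h and from 40.4 ± 5.40 to 31.2 ± 1.73 CPM in acid saline. The difference between its pH effects at 6 h and 3 h was -1.60 ± 0.16 (adjusted p = 5.08e-07). BHLHE41, an E-box repressor, rose by 0.65 ± 0.11 at 3 h (adjusted p = 0.000324) and by 0.52 ± 0.11 at 6 h (adjusted p = 0.00069). NPAS2, a CLOCK paralog, fell by 0.38 ± 0.11 at 6 h (adjusted p = 0.00806), which did not pass with the length and GC correction (-0.09, adjusted p = 0.44) or without replicate 2 of pH 6.0 at 6 h (-0.23, adjusted p = 0.113). TIMELESS, a replication fork protein with a disputed clock role, differed by 0.21 ± 0.09 at 6 h and did not pass (adjusted p = 0.0681), but passed with the length and GC correction (0.33, adjusted p = 0.00176), in the fit of only the groups compared (adjusted p = 0.0226) and with at least 5 CPM in 3 libraries (adjusted p = 0.0267). It also passed in 5 of the 12 fits that left out a library.

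Of the factors that share the D-box with DBP, 0 of 3 passed the edgeR test at 6 h, where 47.0% of all tested genes did. With 3 genes this count says little beside that share. At 6 h 1, NFIL3, had an unadjusted p under 0.05, and 0 passed by DESeq2 after adjustment. TEF differed by 0.03 ± 0.09 (adjusted p = 0.793) and HLF by 0.98 ± 0.54 at under 1 CPM (adjusted p = 0.145). NFIL3, the D-box repressor, differed by -0.26 ± 0.12 (adjusted p = 0.0735). NFIL3 passed at 6 h with the length and GC correction (-0.35, adjusted p = 0.0134), with library totals alone (-0.31, adjusted p = 0.036) and without replicate 3 of pH 6.0 at 6 h (-0.34, adjusted p = 0.0405). At 3 h 1 of 3 passed, where 18.8% of all tested genes did: NFIL3 fell by 0.56 ± 0.12 (adjusted p = 0.00299).

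Of 20 tested kinases, phosphatases and ubiquitin ligases that act on clock proteins (of 21 listed), 2 rose and 2 fell at 3 h and 3 rose and 7 fell at 6 h, with a median log2 change of -0.03 at 6 h. The 10 of 20 called at 6 h are near the 47.0% of all tested genes (21.9% higher, 25.1% lower). At 3 h 18.8% of all tested genes changed (9.53% higher, 9.26% lower). GSK3B, a kinase of NR1D1 and other clock proteins, fell by 0.84 ± 0.08 at 6 h (adjusted p = 8.84e-09). BTRC, a ligase subunit that marks period proteins for degradation, fell by 0.61 ± 0.12 (adjusted p = 0.000262). USP7, a deubiquitinase of cryptochromes, fell by 0.37 ± 0.08 (adjusted p = 0.000407). With the length and GC correction 5 rose and 6 fell, and the list's median became 0.09.

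Of the chromatin co-regulators of the clock, 1 of 17 rose and 12 fell at 6 h (21.9% and 25.1% of all tested genes), with a median log2 change of -0.51. At 3 h 1 was higher and 4 lower (9.53% and 9.26% of all tested genes), with a median of 0.06. SIN3A, a co-repressor scaffold of the PER complex, fell by 0.64 ± 0.08 at 6 h (adjusted p = 1.72e-06), SIRT1, a deacetylase, by 0.66 ± 0.09 (adjusted p = 2.62e-06), KDM5A, a histone demethylase, by 0.60 ± 0.10 (adjusted p = 2.24e-05) and WDR5, a methyltransferase subunit, by 0.65 ± 0.08 (adjusted p = 1.37e-06). With the length and GC correction 1 rose, 10 fell and the median was -0.26.

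In the CREB arm, through which cyclic AMP induces PER1, 1 of 14 tested genes rose and 7 fell at 6 h, with a median of -0.26, where 21.9% of all tested genes rose and 25.1% fell. At 3 h 1 rose and 1 fell, where 18.8% of all tested genes changed. The gene that rose was SIK1, a CREB target whose kinase restrains the CREB coactivators, at 22.1 ± 1.09 and 49.5 ± 4.35 CPM at pH 7.4 and 6.0 after 3 h and at 24.5 ± 0.484 and 110.2 ± 15.1 CPM after 6 h. Its log2 fold changes were 1.17 ± 0.10 (adjusted p = 3.64e-08) and 2.17 ± 0.10 (adjusted p = 1.11e-13). CREB1 itself fell by 0.54 ± 0.09 at 6 h (adjusted p = 5.91e-05), SIK2 by 0.55 ± 0.09 (adjusted p = 5.62e-05) and the coactivator CRTC3 by 0.46 ± 0.09 (adjusted p = 0.000328). The correction left 2 higher and 7 lower, with a median of -0.17.

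In the glucocorticoid receptor arm, another route to PER1, 1 of 7 tested genes rose and 2 fell at 3 h, and 1 rose and 1 fell at 6 h. At 6 h 47.0% of all tested genes changed, and with 7 genes these counts say little beside such shares. At 3 h 18.8% of all tested genes changed (9.53% higher, 9.26% lower). NR3C1, the receptor gene itself, was at group means of 0.391 to 0.747 CPM in the count table, which were not checked against another annotation. KLF9, a glucocorticoid-responsive repressor, rose by 0.68 ± 0.10 and 0.86 ± 0.09 (adjusted p = 4.65e-05 and 1.56e-07). SGK1, a kinase gene induced by the receptor, fell by 1.56 ± 0.14 and 0.84 ± 0.13 (adjusted p = 4.38e-08 and 2.57e-05). TSC22D3, known as GILZ, fell by 0.84 ± 0.17 at 3 h (adjusted p = 0.0016) and differed by -0.27 ± 0.16 at 6 h (adjusted p = 0.157). PDK4, which inhibits pyruvate dehydrogenase, differed by -0.40 ± 0.23 at 6 h (adjusted p = 0.158). The median at 6 h was 0.10, and 0.34 with the length and GC correction.

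Of the clock-controlled output genes, 11 of 20 tested were higher and 3 lower at 6 h (21.9% and 25.1% of all tested genes), with a median of 0.39. At 3 h 4 were higher and 2 lower (9.53% and 9.26% of all tested genes), with a median of 0.05. With the length and GC correction 11 were higher and 3 lower at 6 h, with a median of 0.37. KLF10, a circadian zinc finger repressor, rose by 1.16 ± 0.09 at 6 h (adjusted p = 7.56e-10), and MAFF, a small MAF factor, by 1.01 ± 0.08 (adjusted p = 8.27e-10). ABCB1, a drug efflux pump whose transcription D-box factors drive, fell by 1.14 ± 0.09 (adjusted p = 7.55e-10), and PPARA, a lipid-sensing receptor with E-box control, fell by 1.13 ± 0.09 (adjusted p = 1.94e-09). Genes of the 7 lists that did not have enough counts to be tested were RORB, CIART, BHLHE40, USP2, ADCYAP1, ZBTB16 and GYS2, none above a group mean of 0.583 CPM. The BHLHE40 values, 0.0395 to 0.085 CPM, are those of the count table and were not checked against another annotation.

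**Figure D5:**
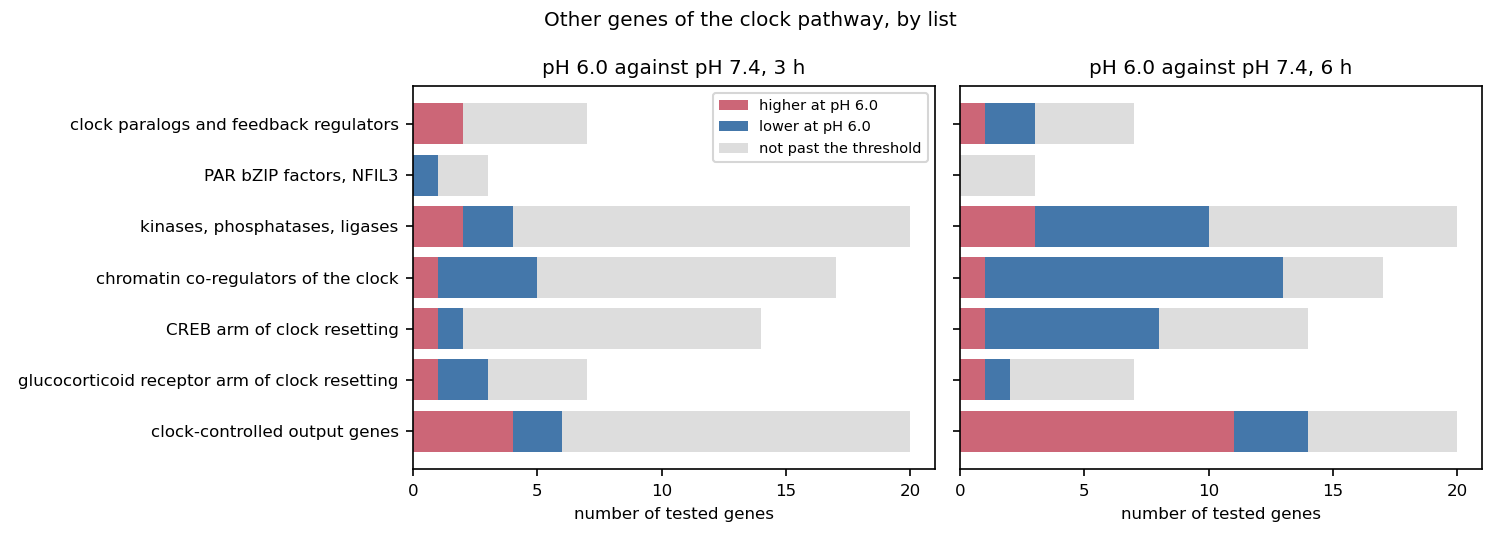
Number of tested genes in 7 lists of clock pathway genes that were higher (red), lower (blue) or not past the threshold (grey) at pH 6.0 against pH 7.4, at 3 h and at 6 h. At 6 h 12 of 17 chromatin co-regulators were lower (25.1% of all tested genes) and 11 of 20 output genes were higher (21.9%).

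The genes whose profile over the 12 libraries was nearest to that of each member were found among the 10355 genes averaging 100 counts or more, by the root mean square distance between centred log2 CPM values. PER3, which averaged fewer counts than that, was left out. For PER1 they were BCL3, an NF-kappa-B cofactor (0.18), ATF3, a stress-induced bZIP factor (0.19), and HSPA1B, an inducible HSP70 gene (0.23), where the median gene lay at 1.12. For NR1D1 they were CCL20, an epithelial chemokine (0.16), PLAUR, the urokinase receptor (0.17), and GADD45A, a DNA damage response gene (0.18), with a median of 0.87. For DBP they were PTMA (0.09) and the glycolytic genes TPI1 (0.10) and LDHA (0.10), with a median of 0.43. For CRY2 they included ATAT1 (0.10) and EFNB1 (0.11). Among the genes that fell at 6 h, PER2 was nearest to TBC1D16, IGF2R and RPRD2 (0.06 to 0.08), BMAL1 to ZNF217, ZFTA and ADGRA3 (0.09 to 0.10), CLOCK to AFDN, PTPN4 and AGAP1 (0.07), CRY1 to PSPH, HAPSTR1 and INTS7 (0.12 to 0.14) and NR1D2 to genes that included SH3RF1 (0.08) and CCSER2 (0.10). The profiles compared all come from the same 12 libraries and share their depth and treatment, so the distances are descriptions, with no test.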

How the data were processed

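RNA sequencing measured 12 T84 libraries. Per the submitters' processing notes, CASAVA and STAR were used with the genome build hg19; their versions, the annotation, the counting tool and any use of strand were not given in the sources used here. The authors deposited, for each of the 12 libraries, whole-number read counts per Ensembl gene and RPKM values; recomputing RPKM from the deposited counts, gene lengths and library totals gave 100% of 271407 values within 1e-06. Counts were tested with edgeR 4.0.16 in R 4.3.3: TMM scaling, filterByExpr, robust quasi-likelihood F tests in a single fit of 4 groups (8 residual degrees of freedom), 5 comparisons, and Benjamini-Hochberg adjustment over all 15630 tested genes, with a call at an adjusted p under 0.05. Errors of log2 fold changes are standard errors, and errors of levels are standard deviations over 3 libraries. The biological coefficient of variation was 9.29%. The procedure was also run on simulated counts that gave all genes the same dispersion. Such counts do not show how it behaves on these data. Between replicates, chi-square per degree of freedom over genes was 5.40 to 19.5, so no library repeats another within sampling noise. Alternatives were median-of-ratios factors, library totals alone, no filter, at least 5 CPM in 3 libraries, only the groups compared, a replicate block, a spline on gene length and GC content (97.04% of tested genes had both), DESeq2 1.42.0, and leaving out each library. All 10 members are named, and the 7 lists held 95 other genes. Those named with tests had the 4 smallest p for pH at 6 h in their list or a called change of at least 2-fold. NR3C1 and the list genes not tested are named for their levels alone. Members and lists were chosen with earlier results of these data known. A few genes that this rule or the profile distances would name are not reported here.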

Additional observations from a re-analysis of the deposited data

Results flagged for a closer look

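The pH effect at 6 h differed from that at 3 h, by the interaction term of the edgeR fit, for 7 clock genes. On the log2 scale the effect at 6 h minus that at 3 h was 1.07 for NR1D1, 1.02 for PER1, 0.66 for DBP and 0.42 for CRY2. It was -0.96 for PER2, -0.64 for CLOCK and -0.61 for BMAL1. For CLOCK and BMAL1 the difference did not pass with the length and GC correction.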

How the results depend on the processing

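Depth limits PER3 most, with 56 counts in its shallowest library. Leaving out each library in turn, the number of clock genes called was 3 to 4 of 10 for pH at 3 h, 9 for pH at 6 h, 4 to 7 for time at pH 7.4, 5 to 6 for time at pH 6.0 and 6 to 8 for the interaction. Over all genes the calls ranged from 1648 to 3617 for pH at 3 h (2937 with all libraries; 1661 without replicate 1 of pH 7.4, 1649 and 1648 without replicates 2 and 3 of pH 6.0) and from 1915 to 3408 for time at pH 6.0 (3050 with all; 1915 without replicate 3 of pH 6.0 at 3 h). With library totals alone the higher and lower calls were 1194 and 1752 for pH at 3 h (1489 and 1448 with TMM), 2093 and 3179 for time at pH 7.4 (2695 and 2247) and 773 and 2499 for time at pH 6.0 (1351 and 1699). That scaling moved the median of all genes for time at pH 6.0 from -0.019 to -0.10, and PER1, NR1D1, CRY2, NR1D2, PER2 and CLOCK kept their directions there, while BMAL1 passed (-0.46, adjusted p = 0.0261). With the length and GC correction they were 2257 and 1534 for time at pH 6.0 and 2075 and 1659 for the interaction (2048 and 2541). The BMAL1 interaction did not pass in 5 of the 12 leave-one-out fits.

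Replicate numbers were shared between groups, and deviations of same-numbered libraries correlated at -0.13 to 0.23. Between the pH values at 3 h these correlations were 0.045 to 0.23, against -0.14 to 0.060 for libraries of different number. At 6 h they were -0.028 to 0.14, against -0.12 to 0.053. The labels state no pairing, so the main fit did not pair libraries by number. With the replicate block the numbers of clock genes called were 4, 9, 6, 6 and 7 of 10, as without it, beside 3231, 7457, 5115, 3289 and 4774 of all genes (2937, 7342, 4942, 3050 and 4589 without it), and the 4 ratios each had an exact permutation p of 0.03125, the smallest that pairing allows.

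Signs turned only for differences that did not pass the test as reported, except CLOCK with time at pH 7.4. With the length and GC correction, and with that correction and the replicate block, the log2 differences were -0.19 and -0.19 for CLOCK with pH at 3 h, -0.15 and -0.14 for CLOCK with time at pH 7.4, 0.18 and 0.17 for PER3 with pH at 6 h, -0.0084 and -0.011 for PER3 with time at pH 7.4, 0.060 and 0.052 for PER3 with time at pH 6.0, 0.068 and 0.064 for the PER3 interaction, and 0.11 and 0.11 for the CRY1 interaction. PER3 with pH at 6 h was 0.0099 with at least 5 CPM in 3 libraries, the CRY1 interaction was 0.022 with no filter, and TEF with pH at 6 h was -0.0094 with library totals alone. Leaving out each library gave -0.0074 to 0.24 for CLOCK and -0.13 to 0.039 for NR1D2 with pH at 3 h, -0.090 to 0.13 for PER3 and -0.016 to 0.13 for TEF with pH at 6 h, -0.13 to 0.088 for PER3 with time at pH 6.0, and -0.14 to 0.12 for the CRY1 interaction. The cause of these turns was not tested.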
